A study of Mus musculus with 6 samples.

Results

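Amino acid and monocarboxylate transporters were measured in MR 4-25 and in Neo, 2 lines of S49, a mouse T lymphoma that grows in suspension. The labels call MR 4-25 mannitol-recovered, mannitol being a sugar alcohol added to make medium hyperosmotic, and call Neo its parental line. Each line had 3 samples, all untreated and grown in RPMI-1640 medium with serum and added glutamine, and each sample was run on 1 single-colour Agilent array. The labels name no other allele or agent, do not say whether MR 4-25 is a single clone, and do not say whether replicates were separate cultures, so the p-values cover the spread between these samples only and what recovery from mannitol changed cannot be told apart from what else sets these lines apart. The transporters were all genes whose name on the array begins with solute carrier family 1, 3, 6, 7, 16, 36, 38 or 43, without Slc6a6, Slc6a12, Slc38a2, Slc7a11 and Slc3a2. They came to 65 of 27962 gene names, with 105 probes. For 56 of the 65, at least 1 probe stood well above background on 3 or more of the 6 arrays, and the brightest such probe stood for the gene among 21341 genes tested. The family names take in more than the label says: for example, 3 of the 56 carry monoamines, Slc6a8 creatine and Slc43a3 purine bases. Slc7a6os shares a name with Slc7a6 but is not a carrier.

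Cells take up most amino acids through carriers that couple them to sodium or protons, or that exchange them against an amino acid already inside. Most light chains of the Slc7 family reach the membrane only when bound to a heavy chain, Slc3a1 or Slc3a2. Growing lymphocytes depend on glutamine, leucine and arginine entry and export lactate through monocarboxylate carriers. In many cell types small neutral amino acids, taurine, betaine and creatine also serve as organic osmolytes, which are accumulated when the medium becomes hyperosmotic.

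Of the 56 transporter genes, 2 were higher in MR 4-25 than in Neo, 1 was lower, and 53 did not pass the test (limma, adjusted p of 0.05 over 21341 genes). Across all genes tested, 0.675% were called higher, 0.558% lower and 1.23% in either direction. The genes that rose were Slc3a1, the heavy chain of the cystine and cationic amino acid exchanger, and Slc7a2, a carrier of arginine, lysine and ornithine. The gene that fell was Slc16a10, which carries tryptophan, tyrosine and phenylalanine. The median log2 difference of the 56, MR 4-25 minus Neo, was 0.05, beside 0.01 for all genes, with 29 positive and 27 negative. An unadjusted p under 0.05 was reached by 7 of the 56, and by 13.3% of all genes. All 3 arrays of MR 4-25 were above all 3 of Neo in 6 transporters and below them in 4, against 11.2% and 13.1% of all genes. In bulk RNA, fewer cells expressing a gene and less of its RNA per cell cannot be told apart.

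The probes that carry these 3 genes are 60-base oligonucleotides, and the first 30 bases of each, from the scanner files, are shown so that they can be found again. Positions follow the annotation in the scanner files (build mm7), and whether they lie in coding sequence or a UTR was not determined here. Slc16a10 had 3 probes, at chr10:39823852-39823911, chr10:39864141-39864200 and chr10:39863290-39863349, all on the minus strand. The brightest, designed on a cDNA record, lies 40230 and 39379 bases from the other two, which were designed on the RefSeq transcript. The probe of Slc3a1 is at chr17:83358650-83358709 and that of Slc7a2 at chr8:39701203-39701262, both on the plus strand and each the only probe of its gene that was tested.
Slc16a10, brightest probe: gccaacctaaaccttgagtctgttaaatga
Slc16a10, the second probe: agcagtgtgaagctctttaacacgctgcgg
Slc16a10, the third probe: tgtgagatatttctggaaaacacgagaatt
Slc3a1: tggttctgaattttggagaatcatcaactg
Slc7a2: ttttttactgtggacaaaaaagacacagat

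All levels below are log2 signals relative to the 75th percentile of the array, and differences are MR 4-25 minus Neo on that scale. Levels of different genes come from different probes and are not compared. The arrays of MR 4-25 1, MR 4-25 2, Neo 1 and Neo 2 were on slide 1 and those of MR 4-25 3 and Neo 3 on slide 2. The 75th percentile was 521 to 912 intensity units in MR 4-25 and 844 to 988 in Neo, and 61.3% to 76.2% of probes in MR 4-25 and 71.2% to 75.3% in Neo were well above background, with MR 4-25 3 lowest in both. All 10 T lymphoid markers, Thy1 and Cd3d among them, were well above background on every array. None of them passed the test, nor did any tested marker of B lymphoid, myeloid, erythroid, fibroblast, epithelial or neuronal cells. The nearest to the threshold was Lyz2, a myeloid gene, with a difference of 1.06 ± 0.16 (SE) and an adjusted p of 0.0553 in limma, and the other 3 tested myeloid markers differed by −1.03 to 0.27.

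**Figure D1:**
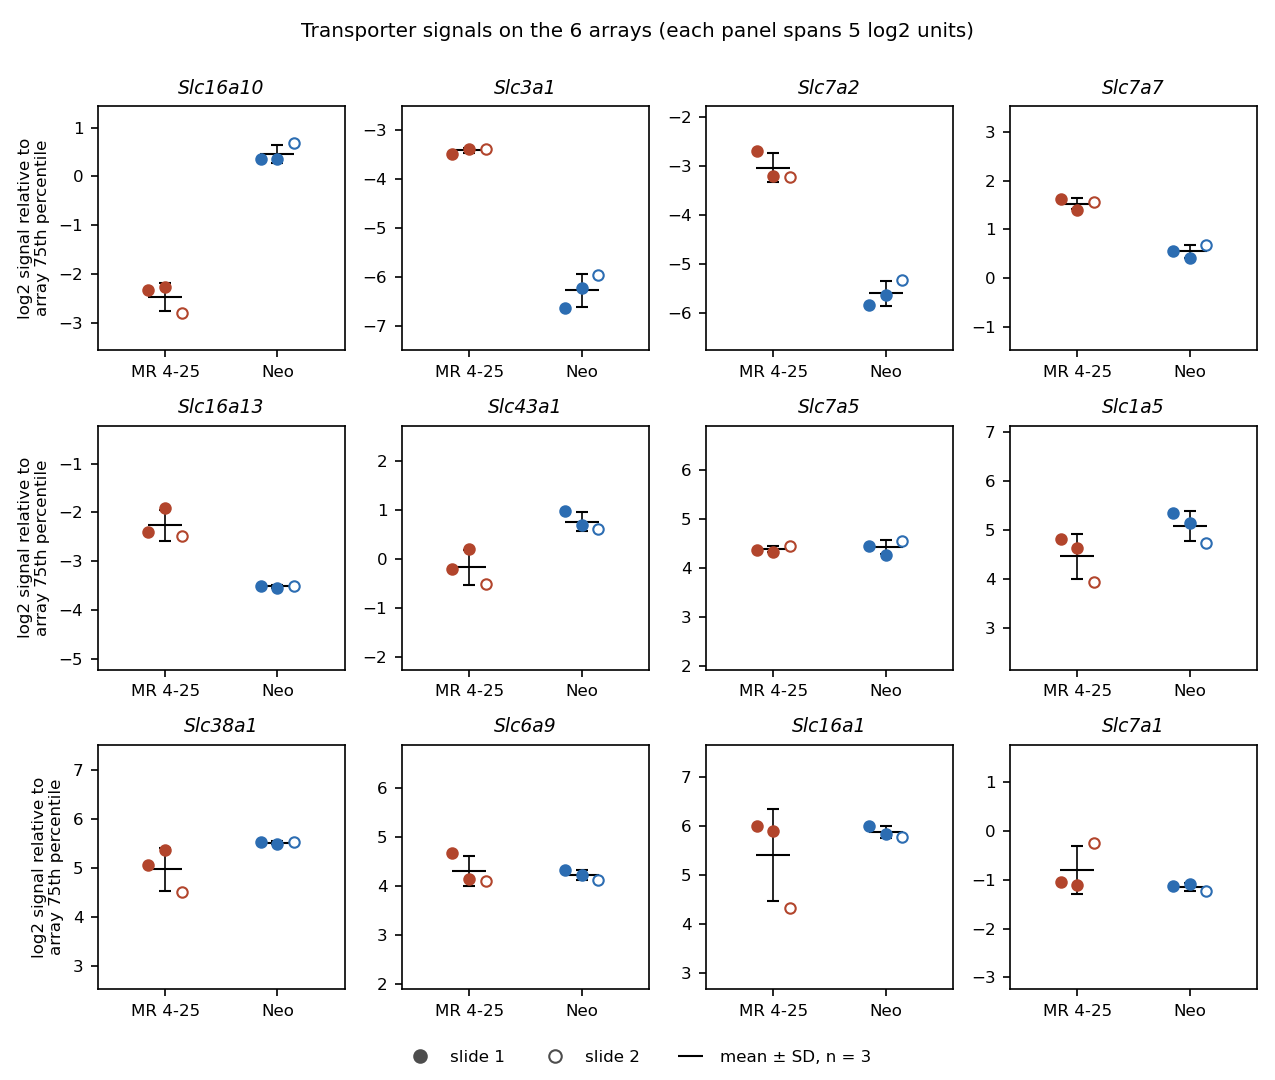
Log2 signal of 12 transporters on each array, relative to the 75th percentile of the array, with MR 4-25 on the left and Neo on the right of each panel; filled points are slide 1, open points slide 2, and bars are means ± SD (n = 3). The lines separate by 2.93 for Slc16a10, 2.87 for Slc3a1 and 2.57 for Slc7a2, while Slc7a5 and Slc6a9 overlap, and Slc16a1 has a single low array, MR 4-25 3.

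The heteromeric carriers, the heavy chain Slc3a1 and the light chains of the Slc7 family, included 9 tested genes, of which 1 rose and none fell. Slc3a1 signals were −3.47, −3.37 and −3.37 in MR 4-25, against −6.63, −6.23 and −5.97 in Neo. No Neo array reached an MR 4-25 array, and the probe was well above background on 3 arrays of MR 4-25 and 1 of Neo, so the gene passed the filter only through the line in which it was high. The difference of the signals as scanned was 2.87 ± 0.21 (SE), with an adjusted p of 0.0118 in limma, or 0.018 with no filter. Since most Neo signals were not well above background, no fold is given. It was 3.01 within slide 1 and 2.59 within slide 2. Its adjusted p in limma was 0.104 with the replicate number as a block, 0.0143 with the slide as a block and 0.518 with normexp background correction, where the difference was 1.52. Every normexp setting here added an offset of 50 intensity units, which by arithmetic makes log2 differences of dim probes smaller. The size depended on the processing: with normexp and quantile normalization together the difference was 0.82, with an adjusted p of 0.0218 in limma. Leaving out MR 4-25 1, MR 4-25 2, Neo 1 or Neo 2 ended the call, with adjusted p-values in limma of 0.0756, 0.075, 0.0652 and 0.0948, and leaving out MR 4-25 3 or Neo 3 kept it, at 0.0301 and 0.0458.

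Slc7a9 is the light chain that Slc3a1 carries to the membrane in kidney and intestine. Its signals were 0.40, −0.03 and −4.41 in MR 4-25, against −0.13, −0.11 and −0.34 in Neo. On slide 1 the lines lay close together, and the low value is that of a single array, MR 4-25 3. The difference was −1.16 ± 1.34 (SE), with a 95% interval of −4.53 to 2.22 and an adjusted p of 0.777 in limma, and was 0.30 within slide 1. Slc7a10 and Slc7a12, light chains of other exchangers, gave little: Slc7a10 was well above background on no array, and Slc7a12 differed by −0.32 ± 1.00 (SE), with −6.38 on Neo 3 and, on MR 4-25 3, −6.97, a surrogate that the scanner software puts in place of a signal too low to measure.

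Slc7a7, with Slc7a6, makes the exchangers that release arginine and lysine from cells against sodium and neutral amino acids. Slc7a7 signals were 1.63, 1.40 and 1.56 in MR 4-25, against 0.56, 0.42 and 0.68 in Neo. All MR 4-25 arrays were above all Neo arrays, by 1.02 within slide 1 and 0.88 within slide 2. The difference of 0.98 ± 0.16 (SE), or 1.97-fold, missed the threshold with an adjusted p of 0.0697 in limma. It passed in 3 of 22 alternative settings. In limma these were a filter on all 6 arrays, at 0.0269, and an intensity trend and robust fit, at 0.0145. The last was normexp, quantile normalization and slide as a block together, at 0.0291. These settings called 524, 718 and 1104 of all genes, against 263 with all 6 arrays and no block. Its adjusted p in limma was 0.453 with normexp, 0.197 with the replicate number as a block and 0.128 on slide 1 alone. Slc7a6 signals were 0.40, 0.79 and 0.66 in MR 4-25, against 0.76, 0.65 and 0.63 in Neo, and the lines overlapped.

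Slc7a5, the main leucine carrier of activated and transformed lymphocytes, was among the steadiest transporters. It had signals of 4.38, 4.32 and 4.45 in MR 4-25, against 4.46, 4.27 and 4.56 in Neo. The difference was −0.05 ± 0.15 (SE), and its 95% interval in limma, −0.43 to 0.34, leaves out a change as large as that of Slc7a7. Slc7a8, a light chain of wider substrate range, had −3.61, −4.13 and −5.66 in MR 4-25, against −3.80, −4.01 and −7.42 in Neo, where both slide 2 arrays were lowest. Slc7a13 showed the same order of slides, with a difference of 0.42 ± 1.16 (SE). Slc7a15 differed by 0.35 ± 0.29 (SE), with 0.08 within slide 1 and 0.90 within slide 2.

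Cationic amino acid carriers numbered 5, all tested, of which 1 rose and none fell. Slc7a2 signals were −2.70, −3.19 and −3.22 in MR 4-25, against −5.85, −5.64 and −5.33 in Neo. The lines were apart on both slides, by 2.80 on slide 1 and 2.12 on slide 2, and the probe was well above background on 3 arrays of MR 4-25 and 2 of Neo, so this gene too needed the MR 4-25 arrays to pass the filter. The difference of the signals as scanned was 2.57 ± 0.23 (SE), with an adjusted p of 0.0167 in limma, or 0.0274 with no filter, and no fold is given since Neo lay near background. Its adjusted p in limma was 0.13 with the replicate number as a block, 0.025 with slide as a block, 0.0602 on slide 1 alone and 0.336 with normexp, where the difference was 1.63. With normexp and quantile normalization together the difference was 0.92, with an adjusted p of 0.0196 in limma. The call remained without MR 4-25 3, at an adjusted p of 0.0359 in limma, and was lost without MR 4-25 1, MR 4-25 2, Neo 1, Neo 2 or Neo 3, at 0.0756, 0.0912, 0.108, 0.128 and 0.071.

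Slc7a1, the widely expressed arginine carrier, had −1.05, −1.11 and −0.25 in MR 4-25, against −1.13, −1.09 and −1.24 in Neo. Only MR 4-25 3 stood off, and the difference was 0.35 ± 0.28 (SE) over all arrays and 0.03 within slide 1. Slc7a3, a related arginine carrier, had 5.34, 5.18 and 4.20 in MR 4-25, against 5.25, 4.99 and 5.22 in Neo, again with MR 4-25 3 apart from the other arrays. Slc7a4, a relative whose transport activity is unsettled, had −1.76, −4.59 and −3.54 in MR 4-25, against −7.52, −4.33 and −4.90 in Neo. Its difference of 2.29 ± 1.12 (SE) was nearly as large as that of Slc7a2, but the lines overlapped and the adjusted p in limma was 0.483. Slc7a14 differed by −0.26 ± 0.36 (SE).

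**Figure D2:**
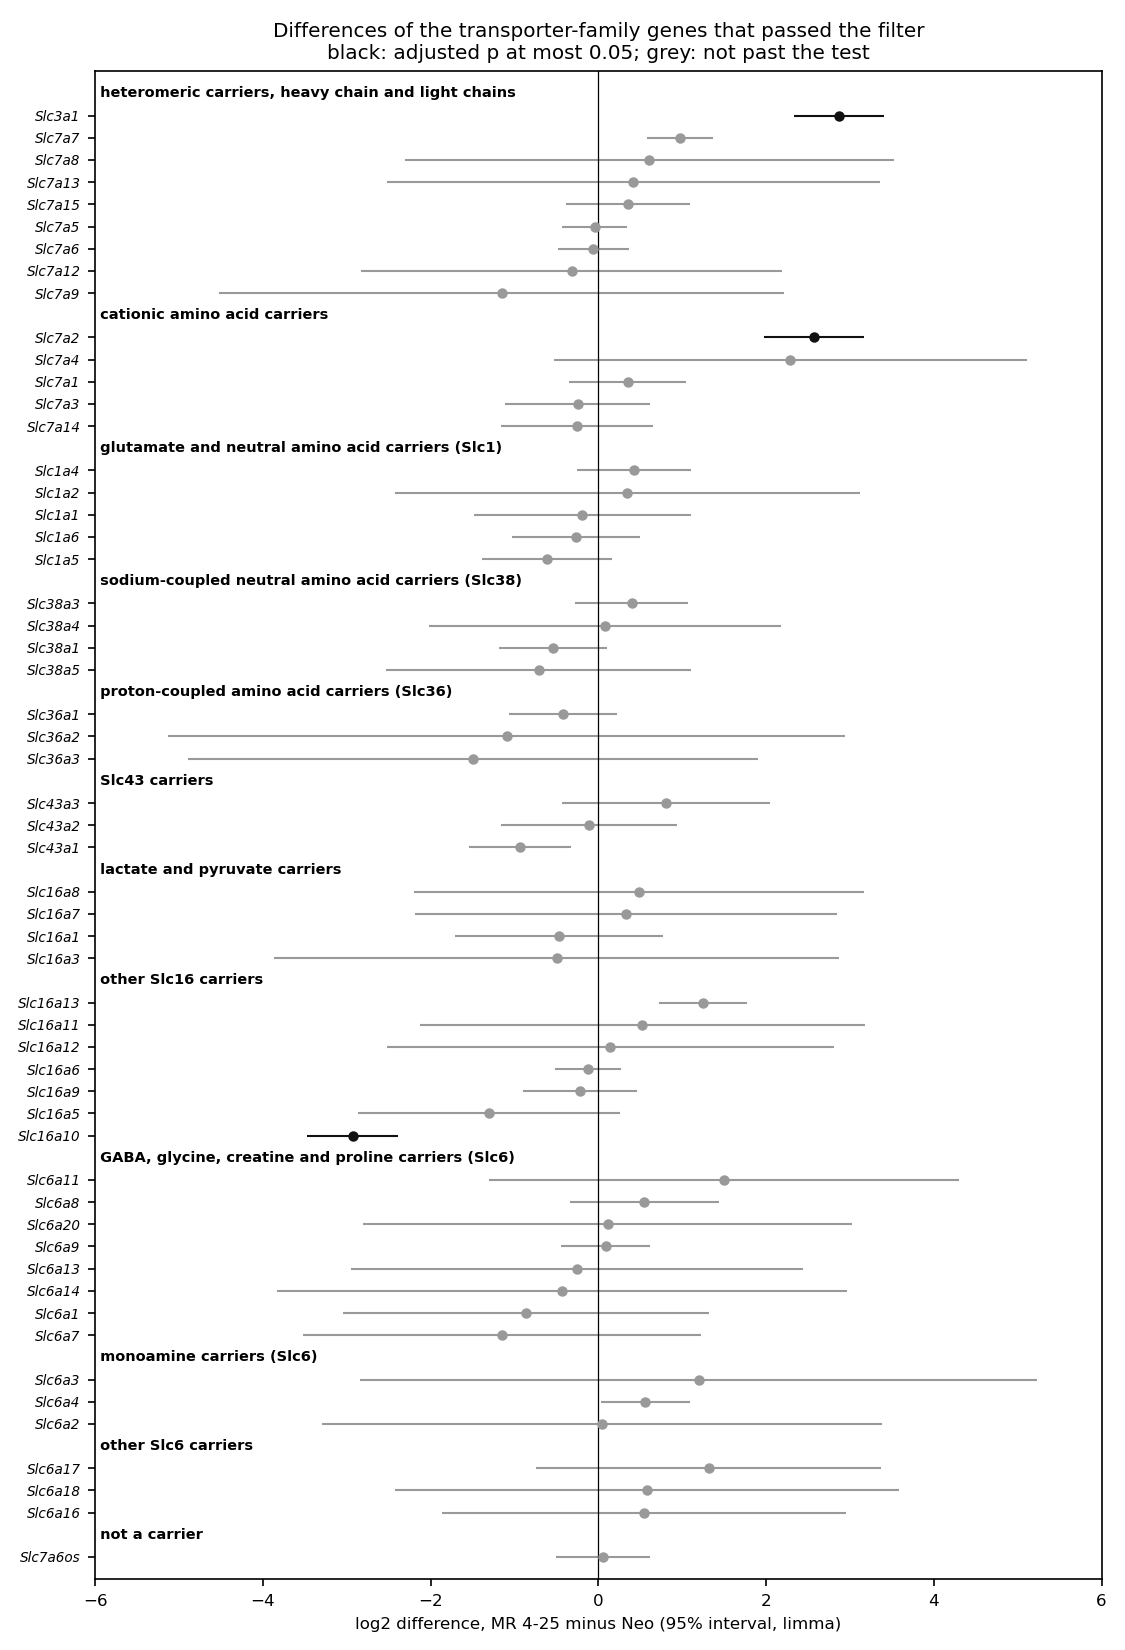
Log2 difference, MR 4-25 minus Neo, of the tested genes (1 of the 56 is not shown) with 95% intervals from limma, grouped by role; black marks the 3 genes past the test. Slc3a1 and Slc7a2 lie above 2 and Slc16a10, on its brightest probe, below −2 with narrow intervals, while Slc7a4, at 2.29, has an interval of −0.54 to 5.11. The intervals do not cover the choice of processing or probe. With normexp and quantile normalization together Slc3a1 and Slc7a2 differed by 0.82 and 0.92, and the other Slc16a10 probes differed by −1.55 and −1.75.

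The Slc16 family holds the proton-linked lactate and pyruvate carriers and 8 other tested members, of which 1 fell and none rose. On its brightest probe Slc16a10, which exports and takes up aromatic amino acids, had −2.33, −2.26 and −2.80 in MR 4-25, against 0.35, 0.36 and 0.68 in Neo. All 6 arrays were well above background, and every MR 4-25 array was below every Neo array. The difference was −2.93 ± 0.22 (SE), a 7.63-fold lower signal, with an adjusted p of 0.0118 in limma, and was −2.66 within slide 1 and −3.48 within slide 2. In limma its adjusted p was 0.108 with the replicate number as a block, 0.0178 with the slide as a block, 0.0308 on slide 1 alone and 0.115 with normexp, where the difference was −2.09. The call was kept without MR 4-25 3, at 0.0178, and lost without MR 4-25 1, MR 4-25 2, Neo 1, Neo 2 or Neo 3, at adjusted p-values in limma of 0.0756, 0.0664, 0.0845, 0.0948 and 0.0646.

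The other probes of Slc16a10 differed in the same direction by less. The second probe had −3.05, −3.03 and −5.09 in MR 4-25, against −2.00, −2.11 and −2.41 in Neo, and all MR 4-25 arrays were below all Neo arrays. Its difference was −1.55 ± 0.61 (SE), with an adjusted p of 0.349 over 30965 probes in limma; tested probe by probe, 1.3% of them were called, and among the 65 transporters only the tested probes of Slc16a10, Slc3a1 and Slc7a2 were. The third probe had −6.45, −4.63 and −6.97 in MR 4-25, against −4.46, −4.77 and −3.57 in Neo, with the −6.97 equal to the surrogate of that array, and was well above background on 1 array of MR 4-25 and 3 of Neo. Its difference was −1.75 ± 0.70 (SE), with an adjusted p of 0.351 over the probes in limma and overlap between the lines. With the mean over the 3 probes in place of the brightest, the difference was −2.08, with an adjusted p of 0.142 in limma.

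**Figure D3:**
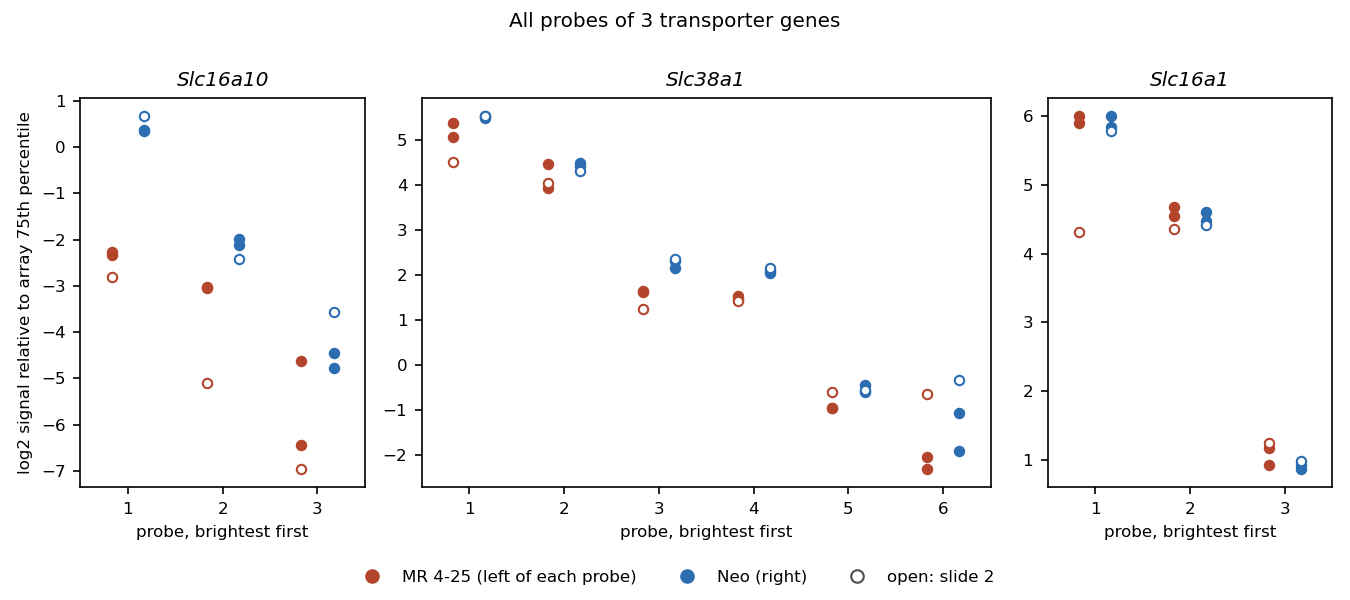
Log2 signal relative to the 75th percentile of the array for every tested probe of Slc16a10, Slc38a1 and Slc16a1, brightest first, with MR 4-25 on the left and Neo on the right of each probe and open points for slide 2. The lines separate on the first 2 of 3 Slc16a10 probes, all 6 Slc38a1 probes have a lower mean in MR 4-25, and the low array of Slc16a1 is low on its brightest probe alone.

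Slc16a13, a family member of incompletely known substrates, had −2.41, −1.90 and −2.49 in MR 4-25, against −3.50, −3.54 and −3.50 in Neo. Every MR 4-25 array exceeded every Neo array, but the difference of 1.25 ± 0.21 (SE) had an adjusted p of 0.0755 in limma. It passed in 2 of 22 alternative settings. In limma these were a filter on all 6 arrays, at 0.0314, and normexp, quantile normalization and slide as a block together, at 0.039. Elsewhere its adjusted p in limma reached 0.514, with normexp. Its neighbour in the genome, Slc16a11, had −1.38, −1.66 and −3.09 in MR 4-25, against −4.71, −1.26 and −1.73 in Neo, where Neo 1 stood alone at the low end. Slc16a6 was steady, with 3.07, 3.24 and 3.34 in MR 4-25, against 3.23, 3.35 and 3.44 in Neo. Slc16a5 had 0.38, 0.40 and −1.64 in MR 4-25, against 1.35, 0.97 and 0.74 in Neo. Its arrays did not overlap between lines, and its difference of −1.31 ± 0.62 (SE) had an adjusted p of 0.469 in limma.

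Among the lactate and pyruvate carriers, 4 of 4 were tested and none passed in limma, adjusted or at an unadjusted p of 0.05. Slc16a1, the widely expressed one, had 6.01, 5.90 and 4.32 in MR 4-25, against 6.01, 5.85 and 5.78 in Neo on its brightest probe. Only MR 4-25 3 was low, and the difference was 0.02 within slide 1. A second probe, 46 bases away in the annotation, had 4.54, 4.68 and 4.36 in MR 4-25, against 4.48, 4.60 and 4.42 in Neo, without that drop. The third, 3799 bases away, differed by 0.19 ± 0.16 (SE). Slc16a3, the carrier associated with strongly glycolytic cells, had −4.74, −4.31 and −0.34 in MR 4-25, against −2.72, −3.68 and −1.50 in Neo, with the slide 2 array highest in each line. Slc16a7, a pyruvate carrier of high affinity, had −3.55, −3.70 and −5.13 in MR 4-25, against −3.24, −3.63 and −6.49 in Neo, with the slide 2 array lowest in each.

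The carriers' partners in lactate and pyruvate handling gave no call in 9 tested genes. Of these, 3 had an unadjusted p under 0.05 in limma, against 13.3% of all genes. Bsg, the chaperone that brings Slc16a1 and Slc16a3 to the membrane, had 4.81, 5.37 and 4.87 in MR 4-25, against 4.14, 4.53 and 4.06 in Neo. The lines did not overlap, and the difference of 0.77 ± 0.24 (SE) had an adjusted p of 0.256 in limma. Emb, a chaperone of the same family that serves Slc16a7, differed by 0.54 ± 0.15 (SE), also without overlap, with an adjusted p of 0.22. Ldha, which makes lactate from pyruvate, had 8.36, 8.57 and 8.45 in MR 4-25, against 8.19, 8.57 and 8.23 in Neo, and the lines overlapped.

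The Slc1 family holds the high-affinity glutamate carriers and the neutral amino acid exchangers Slc1a4 and Slc1a5, and none of its 5 tested members passed in limma at an adjusted p of 0.05 or an unadjusted one. Slc1a5, a main glutamine exchanger of lymphocytes, had 4.81, 4.63 and 3.94 in MR 4-25, against 5.34, 5.15 and 4.73 in Neo. The value of MR 4-25 1 exceeded that of Neo 3, so the lines overlapped, and the difference was −0.61 ± 0.31 (SE) with an adjusted p of 0.49 in limma. Within slides it was −0.52 and −0.80. Slc1a4 differed by 0.43 ± 0.27 (SE) on its brightest probe and 0.44 ± 0.24 on the other. Slc1a1, a glutamate and cysteine carrier, had −3.43, −4.01 and −5.31 in MR 4-25, against −4.10, −3.80 and −4.28 in Neo.

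Sodium-coupled neutral amino acid carriers of the Slc38 family numbered 4, and none passed in limma at either level on its brightest probe. Slc38a1, a glutamine carrier, was lower on average in MR 4-25 on all 6 of its probes, by 0.26 to 0.76. On the brightest it had 5.06, 5.37 and 4.51 in MR 4-25, against 5.54, 5.49 and 5.54 in Neo. Every MR 4-25 array was below every Neo array there, and the difference of −0.54 ± 0.25 (SE) had an adjusted p of 0.464 in limma. The third probe in brightness had 1.63, 1.63 and 1.25 in MR 4-25, against 2.31, 2.15 and 2.34 in Neo, a difference of −0.76 ± 0.18 (SE) with an adjusted p of 0.15 over the probes. The probes report on the same 6 samples and are not replicates. Slc38a3 differed by 0.39 ± 0.27 (SE), Slc38a4 by 0.08 ± 0.83, and Slc38a5 by −0.71 ± 0.72 with its low value on MR 4-25 3.

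A further 6 tested carriers of the same families stand on the array under older names, outside the rule, with 2 opposite-strand transcripts named after such carriers, and none was called. The carriers include Slc38a9, the lysosomal arginine sensor, which differed by 0.24 ± 0.19 (SE). Slc38a10 had 4.10, 3.90 and 4.15 in MR 4-25, against 3.88, 3.66 and 3.86 in Neo, with a difference of 0.25 ± 0.16 (SE) and an adjusted p of 0.604 in limma. All MR 4-25 arrays were above all Neo arrays for Slc38a10, by a small margin.

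The proton-coupled Slc36 carriers of glycine, alanine and proline act at lysosomes and the cell surface, and 3 of 4 were tested with no call at either level. Slc36a1 had −0.98, −1.59 and −1.82 in MR 4-25, against −0.94, −1.08 and −1.10 in Neo, where MR 4-25 1 lay within the Neo range. Its second probe differed by 0.47, opposite to the −0.43 of the brightest. Slc36a3 had −1.79, −2.18 and −6.60 in MR 4-25, against −2.02, −1.80 and −2.26 in Neo, a single low array. Slc36a2 had −5.13, −7.65 and −2.25 in MR 4-25, against −5.86, −2.72 and −3.17 in Neo, and spread widely in both lines. Slc36a4 was well above background on 1 array of each line and was not tested.

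All 3 Slc43 carriers were well above background on every array and none passed. Slc43a1, a sodium-independent carrier of leucine and other branched-chain amino acids, had −0.21, 0.21 and −0.51 in MR 4-25, against 0.98, 0.71 and 0.62 in Neo. The lines did not overlap, with differences of −0.84 within slide 1 and −1.13 within slide 2. The difference of −0.94 ± 0.24 (SE) had an adjusted p of 0.193 in limma. It passed in 1 of 22 alternative settings, normexp, quantile normalization and slide as a block together, at 0.0447 in limma. With normexp alone its adjusted p in limma was 0.442. Slc43a3, which carries purine bases, had −2.48, −2.25 and −1.08 in MR 4-25, against −3.39, −2.25 and −2.59 in Neo. Slc43a2, related to Slc43a1, differed by −0.11 ± 0.42 (SE) on its brightest probe. Its second probe had −5.33, −5.20 and −5.03 in MR 4-25, against −4.08, −4.36 and −3.22 in Neo, without overlap. That probe was well above background on 2 arrays of MR 4-25 and 3 of Neo. Its difference was −1.30 ± 0.33 (SE), with an adjusted p of 0.179 over the probes in limma.

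The Slc6 carriers take up GABA, glycine, creatine, proline and monoamines with sodium and chloride, and several move organic osmolytes in other cells. None of the 14 tested passed the test, and Slc6a4 alone had an unadjusted p under 0.05 in limma. Slc6a9, the glycine carrier, had 4.67, 4.15 and 4.10 in MR 4-25, against 4.32, 4.22 and 4.11 in Neo, a difference of 0.09 ± 0.21 (SE). Its 95% interval in limma was −0.44 to 0.62. Slc6a8, the creatine carrier, had −4.28, −4.20 and −3.20 in MR 4-25, against −4.27, −4.31 and −4.74 in Neo. On slide 1 its lines differed by 0.05 and on slide 2 by 1.54, with an adjusted p of 0.611 in limma over all arrays.

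Slc6a13, a GABA carrier that also takes taurine, was measured by a pair of probes that share 40 bases. The brighter had −2.79, −2.96 and −5.90 in MR 4-25, against −5.01, −2.80 and −3.08 in Neo. The other had −3.91, −4.24 and −5.73 in MR 4-25, against −3.94, −3.86 and −5.34 in Neo. MR 4-25 3 was low on both, and Neo 1 was low on the first and Neo 3 on the second. Slc6a11 and Slc6a17, a GABA carrier and a neuronal carrier of neutral amino acids, had differences of 1.49 ± 1.11 (SE) and 1.31 ± 0.82. In both, Neo 1 was the low array, at −5.51 and −5.13. Their other probes gave differences down to −0.34 for Slc6a17 and −0.25 for Slc6a11.

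Monoamine carriers take released transmitters back into neurons, and 3 were tested. Slc6a4, the serotonin carrier, had −4.32, −4.34 and −4.10 in MR 4-25, against −4.76, −4.54 and −5.14 in Neo. The lines did not overlap, and the difference of 0.56 ± 0.21 (SE) had an adjusted p of 0.353 in limma. Slc6a3, the dopamine carrier, had −3.09, −3.24 and −4.79 in MR 4-25, against −3.17, −3.12 and −8.42 in Neo. The last value is a surrogate. Slc6a2, the noradrenaline carrier, had its lowest signals on the slide 2 arrays, with −7.32 on Neo 3 and a surrogate of −6.97 on MR 4-25 3.

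The 9 transporters not tested were Slc1a3, Slc1a7, Slc6a5, Slc6a15, Slc6a19, Slc7a10, Slc16a4, Slc16a14 and Slc36a4. Their brightest probes were well above background on at most 1 array of each line. None of the 65 was well above background on all arrays of 1 line and none of the other.

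How the arrays of a line spread bears on these results. The SD within MR 4-25 or within Neo exceeded 1 in 28 of 56 transporters and in 32.4% of all genes tested. The median SE of a difference was 0.57 for the transporters and 0.30 for all genes. MR 4-25 3 was at least 2 below both other arrays of its line in 12 of 56 transporters, 21.4%, against 10.8% of all genes, and at least 2 above them in 7, 12.5%, against 6.67%. Neo 3 was at least 2 below its line in 10 transporters and Neo 1 in 6, or 17.9% and 10.7%, against 8.43% and 5.64% of all genes. MR 4-25 1, Neo 2 and the upper side of every Neo array gave none, and MR 4-25 2 gave 1. Both slide 2 arrays were below all slide 1 arrays in 20 transporters and above them in 4, or 35.7% and 7.14%, against 22.6% and 9.65% of all genes. Surrogates stood for 6 transporters on MR 4-25 3 and 2 on Neo 3, or 10.7% and 3.57%, against 9.02% and 1.97% of all genes. In all, 7 transporters had a surrogate, or 12.5%, against 11.7% of all genes. None stood for Slc3a1, Slc7a2 or Slc16a10 in the tested probe.

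**Figure D4:**
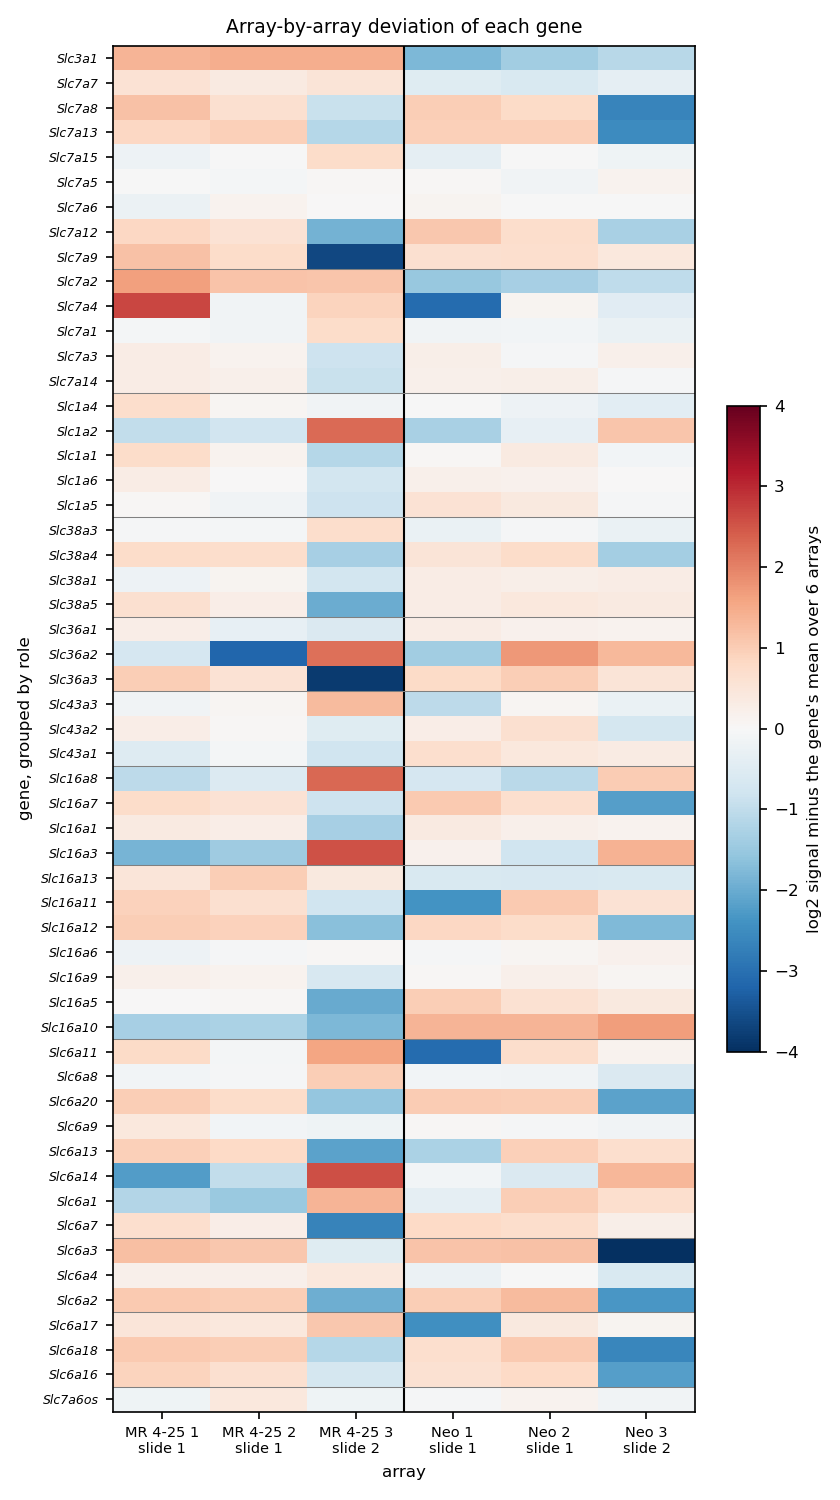
Log2 signal of the tested genes (1 of the 56 is not shown) on each array minus the mean of the gene over 6 arrays, with rows grouped by role and MR 4-25 left of Neo. Slc16a10, Slc3a1 and Slc7a2 change colour at the line between MR 4-25 and Neo, whereas most deep colours stand in single arrays, such as MR 4-25 3 for Slc36a3 and Slc7a9 or Neo 3 for Slc6a3.

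Differences of over 1 in size occurred in 13 of 56 transporters, 23.2%, and in 10.7% of all genes tested. Of these 13, the genes called were Slc16a10, Slc3a1 and Slc7a2. The median difference over the 56 was 0.03 on slide 1, where each line had 2 arrays, and 0.32 on slide 2, where each had 1, beside −0.02 and 0.09 for all genes. Of the 34 transporters well above background on all 6 arrays, 1 was lower and none higher, beside 88 lower and 123 higher of 15238 genes. Of the 22 transporters so on 3 to 5 arrays, 2 were higher and none lower, beside 21 and 31 of 6103 genes. These 2, Slc3a1 and Slc7a2, were well above background on 3 arrays of MR 4-25 and on 1 and 2 of Neo. Both needed the MR 4-25 arrays to pass the filter, so their place in this group depended on the difference itself. The counts therefore cannot show whether transporters were called more often than other genes.

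**Figure D5:**
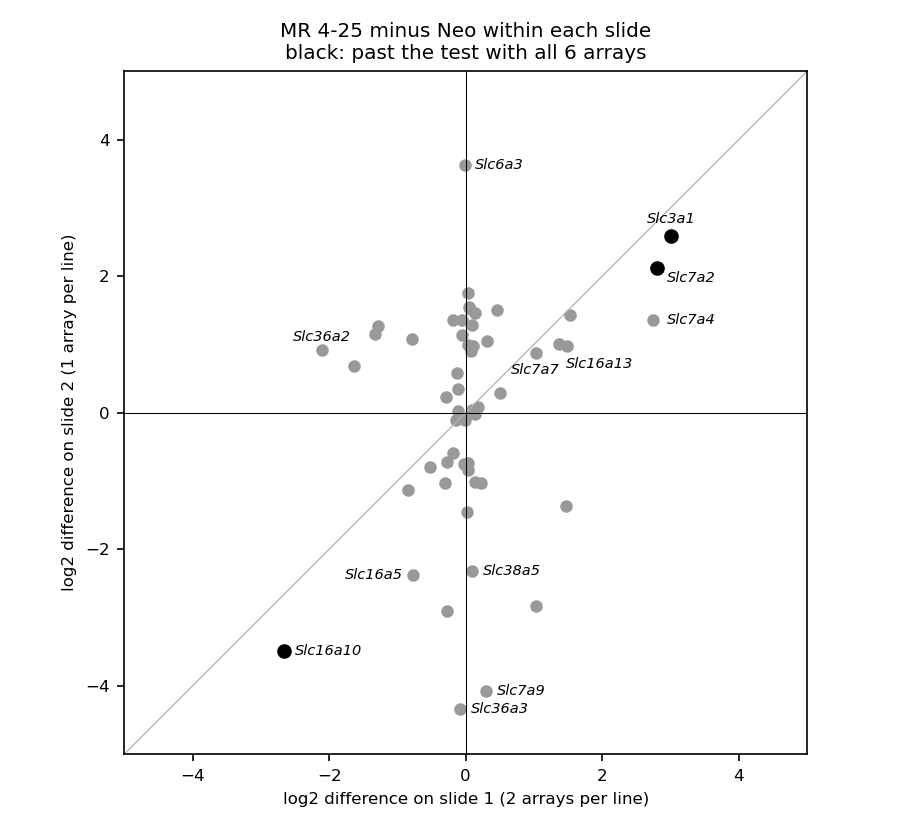
Log2 difference, MR 4-25 minus Neo, of the 56 tested genes within slide 1 (horizontal, 2 arrays a line) and slide 2 (vertical, 1 array a line), with the 3 genes past the test in black and the line of equal differences in grey. Slc3a1, Slc7a2 and Slc16a10 lie near that line, and Slc6a3, Slc36a3 and Slc7a9 have large differences on slide 2 but lie near 0 on slide 1.

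The 5 carriers left out of the rule gave 1 call in limma. Slc7a11, the cystine-glutamate exchanger, had 0.40, −0.12 and 0.24 in MR 4-25, against −1.29, −1.86 and −1.49 in Neo. The lines did not overlap, and the difference was 1.72 ± 0.24 (SE), or 3.30-fold, with an adjusted p of 0.049 in limma, of 0.0613 with slide and 0.108 with the replicate number as a block. All 3 of its probes past the filter were called when tested probe by probe, with differences of 1.64 to 2.25 and adjusted p-values of 0.0205 to 0.0478 over the probes in limma. These probes read the same 6 samples and are not replicates. The gene passed in 8 of 22 alternative settings. The call of the gene was lost without any 1 of the 6 arrays, at adjusted p-values in limma of 0.11 to 0.206. Slc3a2 is the heavy chain of Slc7a5, Slc7a6, Slc7a7 and Slc7a11. On its brightest probe it had 5.96, 5.52 and 6.15 in MR 4-25, against 5.67, 5.17 and 5.26 in Neo. The difference there was 0.51 ± 0.25 (SE), and the lines overlapped. On its other probe the difference was 0.63 ± 0.19 (SE), without overlap, with an adjusted p of 0.231 over the probes in limma. The glutamine carrier Slc38a2 differed by −0.37 ± 0.24, the betaine and GABA carrier Slc6a12 by 0.86 ± 0.40, and the taurine carrier Slc6a6 by −0.10 ± 0.23.

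Genes that use or sense the carried amino acids were called in neither direction by limma. Lysosomal amino acid sensing, with mTOR and its regulators, had 23 tested genes and 5 at an unadjusted p under 0.05. Amino acid metabolism had 21 and 3, other peptide and lysosomal carriers 5 and 1, and transcription factors of amino acid supply and osmotic stress 7 and 1. Across all genes tested, 13.3% had an unadjusted p under 0.05 in limma. Slc15a4, a lysosomal histidine and peptide carrier, differed by 0.04 ± 0.22 (SE). Atf4, which drives many amino acid carriers when supply falls, had 4.15, 4.36 and 4.13 in MR 4-25, against 4.38, 4.11 and 3.93 in Neo, and the lines overlapped. Myc, which raises glutamine carriers in other cells, differed by −0.63 ± 0.37 (SE), with an adjusted p of 0.567 in limma.

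Among tested protein-coding genes in the RefSeq order, those within 2 places of the 3 called transporters were not called. Beside Slc3a1, Prepl differed by 0.08 ± 0.15 (SE) and Ppm1b by 0.58 ± 0.18. Lrpprc, the second gene on the Ppm1b side, differed by −0.92 ± 0.18 with an adjusted p of 0.109 in limma. Beside Slc16a10, Rpf2 differed by −0.82 ± 0.22 and Mfsd4b5 by 0.55 ± 0.94. Beside Slc7a2, Pdgfrl differed by −0.29 ± 0.33 and Adam25 by −0.08 ± 0.20, and Mtus1, the second gene on the Pdgfrl side, by 2.52 ± 0.36 with an adjusted p of 0.052 in limma.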

How the data were processed

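The authors deposited scanner output with Cy3 intensity values made by Agilent Feature Extraction (9.5.3.1 in the file headers, 9.5 in the submitters' processing notes). From the processed, background-corrected intensity, control and outlier spots were left out, the 75th percentile of each array was subtracted as log2, spots of a probe were averaged, and the 30965 probes that stood well above background on 3 or more of the 6 arrays were kept. The brightest probe stood for each of 21341 genes. Names came from RefSeq accessions (22951 probes), current file symbols (6659) or synonyms (3109), or were kept (8455). Lines were compared with limma 3.58.1 in R 4.3.3 (lmFit, eBayes) with Benjamini-Hochberg adjustment, as MR 4-25 minus Neo; data.table (1.17.8), jsonlite 2.0.0, Python 3.11.15 and matplotlib 3.10.9 were used, and the test was tried on simulated data. Deviations of same-numbered arrays correlated at 0.291, 0.214 and 0.557, so the replicate number was also fitted as a block; slides, read from the file headers, overlap with the numbers. Members, roles, lists and fixed named genes were chosen with earlier results of these data known. Named were all called members, the 10 largest differences each way and the fixed genes; other members, neighbours and markers were named after their values were seen. A transporter and a partner gene are counted but not reported here by name. The number of arrays, 3 a line, limits the precision.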

Additional observations from a re-analysis of the deposited data

How the results depend on the processing

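The values with all 6 arrays and no block were 263 genes called, 2 transporters higher, 1 lower, a transporter median of 0.05 and 1 call among the partner lists. With normexp correction, which moved the median of all genes to 0.34, these were 80, 0, 0, 0.61 and 0 by limma, with 5 transporters higher, 3 lower and 10 partner genes at an unadjusted p under 0.05. With the replicate number as a block they were 1 gene, 0 higher (4 unadjusted), 0 lower (4 unadjusted) and 0 in the partner lists (13 unadjusted). Slide 1 alone gave 124 genes, 1 transporter higher and 0 partner calls (12 unadjusted), and the mean over probes gave 0 lower (4 unadjusted). Counts of genes were 512 with normexp and quantile, 524 with a filter on all 6 arrays and 718 with an intensity trend and robust fit. Slide as a block with normexp and quantile gave 1104 genes, 4 transporters higher, 2 lower and 5 partner calls. Partner calls were 3 with the trend and robust fit, 2 with every probe on its own, a setting added after the data were seen, and 0 with quantile normalization, median scaling, no filter, slide as a block, and slide as a block with median scaling, which were left with 11 to 15 unadjusted. Leaving out each array in turn gave 0 to 225 genes, 0 to 2 transporters higher, 0 to 1 lower, a median of −0.27 to 0.17, and 0 to 0 partner calls (8 to 17 unadjusted); the 0 genes arose without Neo 1 or Neo 2, with 1690 and 2020 at an unadjusted p under 0.05. Slc3a1, Slc7a2 and Slc16a10 passed in 15, 13 and 14 of the 21, 21 and 22 alternatives that gave a value. Many of these alternatives reuse the same signals and leave the difference unchanged, so they are not independent of each other. The signs were kept in all of them, but the lines did not overlap in these genes, so leaving out an array could not reverse a sign. The filter on all 6 arrays left out Slc3a1 and Slc7a2, so the 2 transporters higher under it were others, Slc16a13 and Slc7a7, at adjusted p-values in limma of 0.0314 and 0.0269. With normexp and quantile, with or without slide as a block, the differences of Slc3a1 and Slc7a2 were 0.82 and 0.92. The normexp settings included an offset of 50 intensity units, and normexp without an offset was not tested. The cause of these changes was not tested. Low signal over background limits the transporters seen on fewer than 6 arrays.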

Other observations

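Among the partner genes, some without a call did not overlap between the lines; those given here were chosen after their values were seen, and MR 4-25 above or below Neo on all arrays occurred in 11.2% and 13.1% of all genes tested. Shmt1 and Shmt2, which make glycine from serine in the cytosol and in mitochondria, differed by −0.99 ± 0.23 and −0.61 ± 0.14 (SE, n = 3 arrays a line), with adjusted p-values of 0.161 and 0.152 in limma. Shmt2 had 4.84, 4.93 and 5.01 in MR 4-25, against 5.56, 5.54 and 5.52 in Neo, as log2 signals relative to the 75th percentile of the array. Nprl2, a subunit of the complex that holds mTOR inactive when amino acids are scarce, had 0.81, 0.94 and 1.44 in MR 4-25, against 0.19, 0.21 and 0.21 in Neo, with an adjusted p of 0.177 in limma. Ddit3, a stress-induced transcription factor, had 2.60, 2.21 and 3.18 in MR 4-25, against 1.51, 1.33 and 1.61 in Neo, with an adjusted p of 0.174 in limma.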
